A study of Homo sapiens with 12 samples.

Results

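MDA-MB-231 cells, a widely used line from a triple-negative breast cancer, were compared after 48 h with TGFβ and alisertib together and without treatment. The comparison rests on 6 of the 12 RNA-seq libraries of the series: combined libraries 10, 11 and 12 against untreated libraries 1, 2 and 3, chosen by their treatment labels. The other 6 libraries, TGFβ alone (4, 5 and 6) and alisertib alone (7, 8 and 9), both also given for 48 h, served to set the combined change beside that of each agent. All 4 groups were the same line grown in DMEM with fetal bovine serum, and the dose of either agent is not stated in the labels. A single line stands behind every value, and whether a group's 3 libraries came from separate cultures is not labelled. P-values therefore measure only the spread between these libraries, which may be technical. The genes described are the 20571 of 57773 that passed a filter on low counts.

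TGFβ binds a pair of serine/threonine kinase receptors that phosphorylate SMAD2 and SMAD3, which join SMAD4 and enter the nucleus to switch target genes. In carcinoma cells this pathway is known for driving the epithelial-mesenchymal transition, matrix production and, through CDK inhibitors, a slower cell cycle. Alisertib blocks the kinase Aurora A, which TPX2 activates at the spindle, where it matures centrosomes and promotes entry into mitosis; its inhibition leaves spindles abnormal and cells delayed in mitosis or polyploid. These are bulk measurements, so fewer cells in a state and less RNA per cell cannot be told apart.

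Total counts were 93701658 to 100328721 in the untreated libraries and 105921831 to 120619368 in the combined ones. The libraries with the largest deviations from their group means were untreated 1, TGFβ 6, alisertib 9 and combined 10. Alisertib 9 hardly stood apart, with an SD of its log2 deviations of 0.0924 against 0.0848 in alisertib 7. The deviations of these 4 ran against gene GC content (Spearman rho -0.723 to -0.785 across 11083 genes, which are not independent replicates). All other libraries had a positive rho, from 0.158 (alisertib 8) to 0.805 (untreated 2). Opposite signs are partly built in, because deviations are taken from the group's own mean. Across the same genes the deviations of untreated library 1 and combined library 10 correlated at 0.861. The 2 groups compared here thus hold 1 of these 4 libraries each. The 4 were picked by their deviations, so leaving them out can by itself narrow the spread within groups. Whether that raised the counts given below without them was not tested. The line's own markers were present: VIM, CD44, MSN, AXL, EGFR, CAV1 and other genes known to be high in it summed to 1.53e+03 to 1.54e+03 RPKM in untreated and 2.16e+03 to 2.21e+03 RPKM in combined libraries. PLAU, the urokinase protease, rose from 155 to 172 RPKM to 755 to 835 RPKM within that sum, while AXL, CAV1 and S100A4 fell.

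Together the agents changed 8169 genes, 39.7% of those tested, at an adjusted p under 0.05 (quasi-likelihood test of edgeR, Benjamini-Hochberg adjusted, as for every adjusted p below). Of these, 3983 (19.4%) were higher and 4186 (20.3%) lower than in untreated cells. At least 2-fold, 1234 were higher and 995 lower. TGFβ alone raised 3796 genes (18.5%) and lowered 4144 (20.1%), and alisertib alone raised 730 (3.55%) and lowered 657 (3.19%). Those comparisons share the untreated libraries with the combined one, so their values are set side by side below without a measure of likeness. Against TGFβ alone, which shares no untreated library, the combined cells differed in 428 genes (2.08%), 245 higher (1.19%) and 183 lower (0.89%), 27 and 5 of them by at least 2-fold. Against alisertib alone they had 3998 genes higher (19.4%) and 3903 lower (19%). Without libraries 1, 6, 9 and 10 alisertib alone raised 2272 and lowered 2801 genes. With 1 library left out it raised 416 to 1377 and lowered 294 to 1221, most without untreated library 1; both counts fell by more than 1.5 times without untreated library 2 or 3 or any 1 alisertib library. The counts against TGFβ alone were 683 and 751 without the 4 libraries. With 1 library left out they were 83 to 413 and 70 to 341, most without untreated library 1, fewest without TGFβ library 4, and down by more than 1.5 times on leaving out any 1 TGFβ or combined library. The median log2 fold change over all tested genes was 0 in combined against untreated cells.

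The highest changes in the combined cells were in genes nearly silent before treatment. CGB8, a chorionic gonadotropin beta subunit (chr19:49550895-49552400, hg19), had 0.137, 0.0388 and 0.0684 CPM (counts scaled to a common library total, with TMM correction for composition) in untreated libraries and 11.4, 17.8 and 16.1 CPM in combined ones. The fitted log2 fold change was 7.54 ± 0.30 (SE; adjusted p = 8.68e-11), and CGB1 beside it gave 7.36 ± 0.29. These loci overlap and are near-identical copies, so reads cannot be assigned to 1 of them with certainty. FAP, fibroblast activation protein, a serine protease of the cell surface (chr2:163027194-163101661), rose from 0.317, 0.203 and 0.361 to 33.0, 30.7 and 31.9 CPM, a 108-fold rise. DCLK1, a microtubule-associated kinase used as a tuft cell marker (chr13:36345478-36705443), rose from 0.782, 0.620 and 0.782 to 40.7, 38.1 and 41.0 CPM. No combined library of these genes came near an untreated one. Others among the 12 highest by rule were SH2D2A (log2 fold change 5.43), ATG9B (5.23), C4orf26 (5.05), MMP9 (4.89), GPA33 (4.73), PDGFB (4.69) and TRPV3 (4.57). ATG9B overlaps NOS3, TRPV3 overlaps SPATA22 and SH2D2A also overlaps another gene, and the library kit does not mark strand, so reads of these pairs cannot be told apart.

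At the other end stood LGALS12, a galectin (chr11:63273556-63284246). It had 4.23, 6.36 and 7.42 CPM in untreated libraries and 0.183, 0.0369 and 0 CPM in combined ones, a log2 fold change of -6.39 ± 0.45 (adjusted p = 3.82e-08). PLEKHS1 (-4.85) followed, then CIITA (-4.25), the master coactivator of MHC class II genes, which went from 24.4, 29.9 and 32.4 CPM to 1.94, 1.58 and 1.06 CPM. Others of the 12 lowest were SPINK4 (-4.05), VIPR1 (-3.9), the receptor for vasoactive intestinal peptide, DMBT1 (-3.77), HLA-DRA and HLA-DMB (-3.55 each), EVI2B (-3.54), SAA2 and the read-through locus SAA2-SAA4 (-3.53 each) and ANGPT1 (-3.35), the ligand of the TEK receptor. SAA2 overlaps its read-through locus, EVI2B lies within NF1, and SPINK4 and CIITA overlap BAG1 and DEXI. In all 12 the combined libraries lay below every untreated one, as they did in 4905 (23.8%) of all tested genes; 4495 (21.9%) lay above.

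Both agents raised 372 of the 20571 tested genes, 288 of them protein-coding, and both lowered 370, of which 341 were protein-coding. These sets were chosen by the calls of the single-agent comparisons, so their direction there is a description. Counts of genes raised or lowered by each agent in the lists below are to be read against these 372 and 370 of 20571. Just inside the threshold were ZNF425, CYP1B1 and VPS13A, with larger adjusted p-values of 0.0493, 0.0495 and 0.0497; BNIP3, BCL9 and GADD45B lay just outside at 0.0502. In the combined cells 371 of the 372 were called higher and 1 was not called, and all 370 were called lower, comparisons that share the untreated libraries with the choice. Among the 372, 227 were at least 2-fold higher, and among the 370, 158 at least 2-fold lower. The median log2 change of the raised set was 1.09 with TGFβ, 0.46 with alisertib and 1.32 with both; that of the lowered set was -0.58, -0.37 and -0.85.

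FGF5, a growth factor (chr4:81187753-81257834), lay at 4 separate levels: 1.1, 1.18 and 1.29 CPM untreated, 2.53, 2.15 and 2.81 with alisertib, 5.32, 5.49 and 5.43 with TGFβ, and 7.62, 7.52 and 7.20 with both (log2 fold change 2.64 ± 0.11 against untreated, adjusted p = 1.2e-10). IL1A, which encodes the cytokine IL-1 alpha (chr2:113531492-113542167), rose from 19.4, 15.1 and 14 CPM to 127, 114 and 121 CPM; TGFβ libraries lay at 84.4, 82.2 and 92.2 and alisertib libraries at 31.2, 28.8 and 31.2 CPM. Against TGFβ alone the differences of FGF5 (0.46 ± 0.10, adjusted p = 0.0252) and IL1A (0.48 ± 0.09, adjusted p = 0.0160) passed the test. These calls were lost in 6 and 4 of the settings tried, with adjusted p-values up to 0.120 and 0.0902, both without TGFβ library 4.

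Not every gene raised by both agents ended above the TGFβ level. MMP9, the gelatinase of basement membrane collagen (chr20:44637547-44645200), had 0.687, 0.901 and 0.996 CPM untreated and 1.81, 1.73 and 1.6 with alisertib. TGFβ brought it to 29.9, 29.9 and 23.1 CPM, and both agents to 20.3, 27.7 and 29 CPM, so the last pair of groups overlapped (log2 difference -0.11 ± 0.14, adjusted p = 0.853). FAP likewise overlapped, with 32.8, 32.2 and 37.9 CPM under TGFβ against 33.0, 30.7 and 31.9 under both. ANGPTL4, an inhibitor of lipoprotein lipase and a known SMAD and PPAR target, reached 20.7, 30.5 and 30.8 CPM with both agents and 17.4, 15.7 and 13.3 with TGFβ, without overlap, yet the difference missed the test (0.82 ± 0.21, adjusted p = 0.0636). Of the other named members PTPRR, a tyrosine phosphatase (log2 fold change 2.27 against untreated), EFR3B (3.60), ESR2, estrogen receptor beta (3.60), and ATG9B (5.23) were also raised by each agent. The alisertib calls of ESR2 and ATG9B were lost in 5 and 4 settings, and ESR2 overlaps SYNE2.

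**Figure D1:**
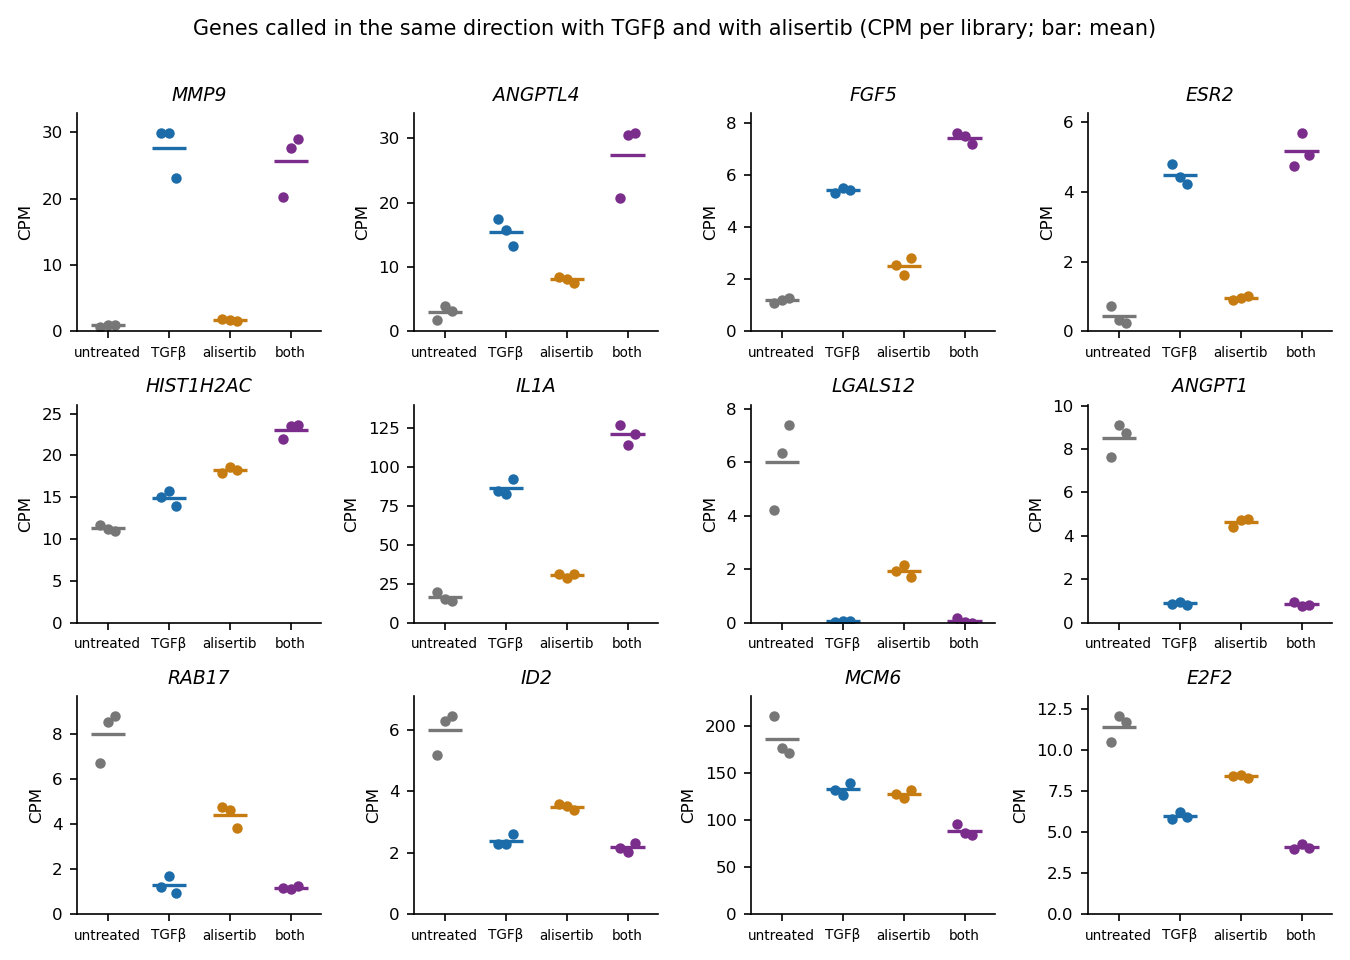
CPM values of 12 genes that TGFβ and alisertib each moved in the same direction, 1 panel per gene, in the 3 libraries of each group (points) with the group mean (bar). IL1A reaches 114 to 127 CPM with both agents, above every single-agent library, while MMP9 overlaps TGFβ alone and MCM6 and E2F2 fall in steps.

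Among the genes lowered by both agents, ID2, an inhibitor of basic helix-loop-helix factors and a BMP target (chr2:8818975-8824583), went from 5.20, 6.31 and 6.47 CPM to 3.58, 3.52 and 3.39 with alisertib, 2.28, 2.27 and 2.62 with TGFβ and 2.17, 2.03 and 2.32 with both. The combined and TGFβ groups overlapped, at -0.14 ± 0.11 on the log2 scale (adjusted p = 0.713). MUC1, a membrane mucin (chr1:155158300-155162707), went from 14.1, 21.3 and 22.5 CPM to 7.19, 7.64 and 7.44 CPM with both agents, below every library of either agent alone, but the difference from TGFβ alone missed the test (adjusted p = 0.173). For ANGPT1, RAB17, ACSS1, ADAM28, CPE, DHRS3 and ITIH4 the combined level did not pass the test against TGFβ alone either, with log2 fold changes of -1.27 (ITIH4) to -3.35 (ANGPT1) against untreated cells. RAB17 is an epithelial trafficking GTPase, ACSS1 the mitochondrial acetyl-CoA synthetase, ADAM28 a membrane protease, CPE carboxypeptidase E and DHRS3 a retinal reductase. The alisertib calls of LGALS12, DHRS3 and ITIH4 were lost in 3, 4 and 5 settings.

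Set against TGFβ alone, the combined cells were higher in 45 and lower in 1 of the 372 genes raised by both (12.1% higher; 1.19% of all tested genes). Of the 370 lowered by both, 76 were lower and 4 higher (20.5% lower; 0.89% of all tested genes). The TGFβ libraries took part in choosing these genes, which makes the counts a description. All combined libraries lay above every library of either single agent in 164 of the 372 (44.1%; 3.02% of all tested genes). They lay below all of them in 176 of the 370 (47.6%; 3.23%). At the median the combined change was smaller in size than the sum of the 2 single changes: the median sum was 1.61 and the median combined change 1.32 in the raised set, and -1.04 and -0.85 in the lowered set. The interaction, the combined log2 change minus that sum, was called in 58 genes (0.282%), 24 as higher (0.117%) and 34 as lower (0.165%) of all tested. It was called higher in 479 and lower in 265 genes without libraries 1, 6, 9 and 10. With 1 library left out it was called higher in 4 (without alisertib library 9) to 80 and lower in 12 to 86 genes, most in both cases without untreated library 1. No more than 18 and 21 were called on leaving out any other library. It was called lower in 33 of the 372 and higher in 15 of the 370, with medians of -0.30 and 0.19. Since the untreated libraries enter both the choice and the interaction, its sign in these sets is no evidence of its own. Without libraries 1, 6, 9 and 10 the sets grew to 917 and 910 genes, of which 351 and 363 were shared with those above.

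In 231 genes the calls of the 2 agents had opposite directions. TGFβ raised and alisertib lowered 66 of them: the combined change was called higher in 36, lower in 4 and not called in 26, with a median of 0.20. TGFβ lowered and alisertib raised 165: here the combined change was called lower in 109, higher in 2 and not called in 54, with a median of -0.39. Against TGFβ alone 21 of the 66 were lower (31.8%; 0.89% of all tested) and 70 of the 165 higher (42.4%; 1.19% of all tested), again with the TGFβ libraries in the choice. Without libraries 1, 6, 9 and 10 the 2 sets held 973 and 571 genes. With 1 library left out they held 33 to 152 and 93 to 279, most without untreated library 1, fewest without untreated library 3, and down by more than 1.5 times without untreated library 2 or 3 or any 1 alisertib library. PLIN2, the coat protein of lipid droplets (chr9:19108373-19149288), shows the pattern. Untreated libraries held 102, 103 and 103 CPM, TGFβ libraries 52.0, 50.2 and 52.1, alisertib libraries 170, 178 and 181, and combined libraries 83.4, 76.4 and 78.6 CPM. No 2 groups overlapped, and the combined cells stayed below untreated ones (log2 -0.37 ± 0.05, adjusted p = 1.34e-05) and above TGFβ alone (0.63 ± 0.05, adjusted p = 2.37e-05). IL1B, the IL-1 beta cytokine, lay near its untreated level: 3.32, 4.17 and 3.98 CPM untreated, 1.90, 1.89 and 1.79 with TGFβ, 7.46, 7.13 and 7.59 with alisertib and 3.40, 3.28 and 3.80 with both (-0.13 ± 0.10, adjusted p = 0.348). IL24, a cytokine of the IL-10 family, stayed low: 27.8, 24.6 and 20.6 CPM untreated against 7.07, 5.08 and 5.03 with both, 2.61, 1.90 and 2.22 with TGFβ and 58.0, 57.4 and 57.9 with alisertib. CPA4, a carboxypeptidase, had 43.1, 47.1 and 44.1 CPM untreated and 26.3, 22.8 and 21.9 with both, and CYP1A1 (log2 -0.77) and DIO2 (-1.07) were likewise lower with both. Among those TGFβ raised, BMF, a BH3-only apoptosis activator (1.49), and LIPG, endothelial lipase (1.68), were higher in combined cells, and MBOAT1 (-0.02, adjusted p = 0.907) and EMB (0.20, adjusted p = 0.159) were not called.

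**Figure D2:**
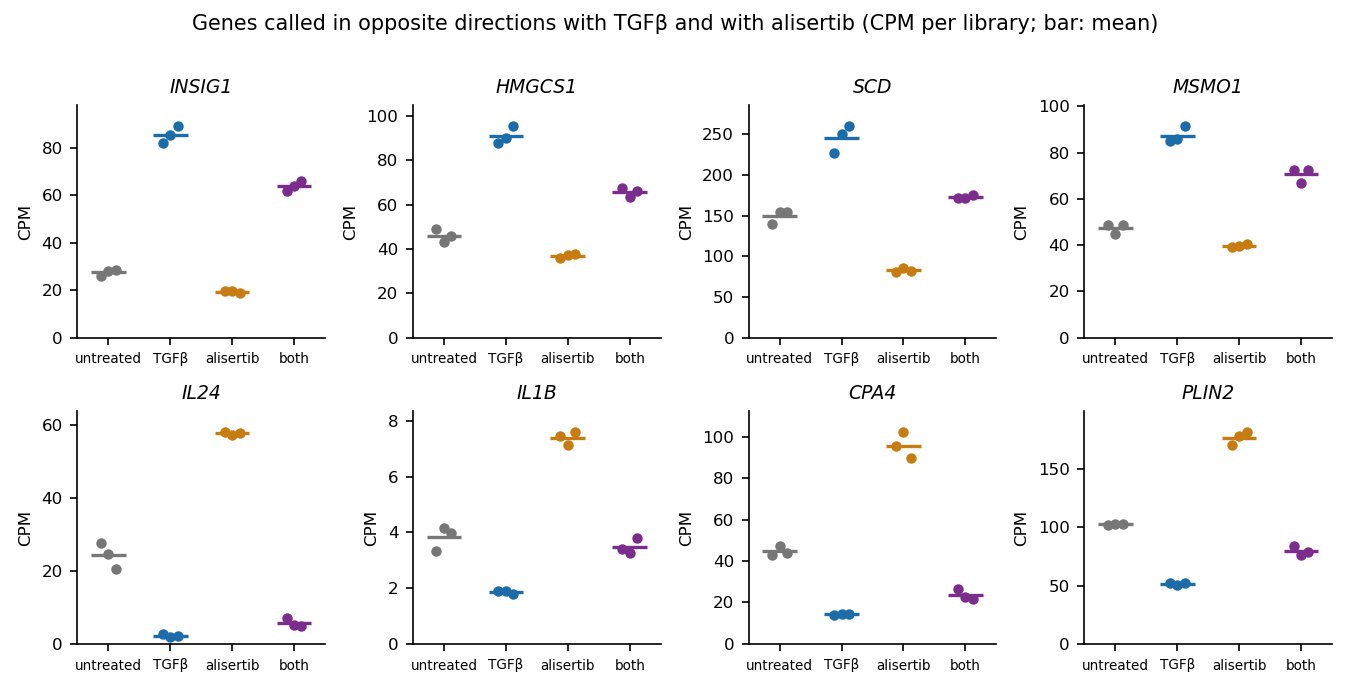
CPM values of 8 genes that TGFβ and alisertib moved in opposite directions, 1 panel per gene, in the 3 libraries of each group (points) with the group mean (bar). Combined libraries lie between those of the single agents in each panel, with IL1B at 3.28 to 3.80 CPM, within the untreated range or just below it.

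DNA replication genes fell with each agent and with both. Of 38 tested members 33 fell in the combined cells and none rose (86.8% lower; 20.3% of all tested genes), with a median log2 fold change of -0.55. TGFβ alone lowered 20 and alisertib alone 23 (52.6% and 60.5%, against 20.1% and 3.19% of all tested genes), with medians of -0.21 and -0.32. Each agent lowered 12 of the 38, against 370 of all 20571 tested genes. Against TGFβ alone 23 of the 38 were lower and none higher (60.5% lower; 0.89% of all tested genes), with a median of -0.35. Without libraries 1, 6, 9 and 10 that count was 32, and leaving out 1 library at a time gave 14 to 28, with 14 or 15 without TGFβ library 4 or 5 or combined library 10, 11 or 12. MCM6, a subunit of the replicative helicase (chr2:136597196-136633996), had 211, 177 and 172 CPM in untreated libraries, 132, 127 and 139 with TGFβ, 128, 123 and 132 with alisertib and 95.5, 85.7 and 84.6 with both. The combined libraries lay below all others, at a log2 fold change of -1.08 ± 0.07 (adjusted p = 3.14e-08) against untreated and -0.58 ± 0.07 (adjusted p = 0.00111) against TGFβ alone.

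E2F2, an activating E2F factor of the G1/S transition (chr1:23832922-23857712), fell further, from 10.5, 12.1 and 11.7 to 3.98, 4.29 and 4.03 CPM, with 5.79, 6.23 and 5.93 under TGFβ and 8.44, 8.47 and 8.31 under alisertib. The groups did not overlap, and the change was -1.48 ± 0.08 (adjusted p = 1.88e-09). E2F8, an atypical repressive E2F and itself an E2F target, fell from 40.9, 38.5 and 36.3 to 15.9, 15.6 and 14.8 CPM. GINS2, a subunit of the GINS complex of the active helicase (overlapping GSE1), fell from 35.9, 30.5 and 30.5 to 19.4, 17.1 and 17.3 CPM. PRIM1, a primase subunit (log2 -0.84), and POLA1, the catalytic subunit of DNA polymerase alpha (-0.83), fell too. The members not called in the combined cells were MCM5, CDT1, PRIM2, GINS3 and POLD1, at -0.33 to 0.01.

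Promoter sequences were looked up in RefSeq (GRCh38.p14) because E2F factors are known to bind GGCGGGA-type sites at replication genes. In windows from 250 bases before to 50 bases after the start, GGCGGGA on either strand was in 19 of 39 promoters of the replication list (48.7%; 32 of 38 genes had an entry). All promoters of the table held it in 15.4% and those of all tested genes in 22.2%, where 60.8% of the genes had an entry. TTTGAA is the CHR element through which the DREAM complex is known to act at mitotic genes. It was in 27 of 46 promoters of the mitosis list (58.7%) and 0 of the 39 replication promoters. All promoters of the table held it in 15.2% and those of all tested genes in 10.9%. The mitosis list had 35 of its 40 genes matched, and GGCGGGA was in 14 of its 46 promoters (30.4%). A match describes these letters only and is not a binding site shown here. The SMAD target and sterol lists had entries for under 80% of their genes, so no share is given for them. The 5 promoters below are shown to set the 2 motifs side by side: replication genes GINS2, CDC6 and PCNA first, then the mitotic genes CCNB2 and PLK1. Each is the 250 bases before the start, 5′ to 3′ on the gene's strand, with the match in capitals. The start shown is the gene's first RefSeq entry with the motif in those bases. The presence of a match in these 5 was therefore set by the choice.
GINS2 promoter, chr16:85688955-85689204, minus strand: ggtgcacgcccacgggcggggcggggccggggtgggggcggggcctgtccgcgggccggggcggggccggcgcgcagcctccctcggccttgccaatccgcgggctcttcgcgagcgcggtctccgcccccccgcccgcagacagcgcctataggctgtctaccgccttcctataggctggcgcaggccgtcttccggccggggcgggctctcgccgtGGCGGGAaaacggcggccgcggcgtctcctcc
CDC6 promoter, chr17:40287629-40287878, plus strand: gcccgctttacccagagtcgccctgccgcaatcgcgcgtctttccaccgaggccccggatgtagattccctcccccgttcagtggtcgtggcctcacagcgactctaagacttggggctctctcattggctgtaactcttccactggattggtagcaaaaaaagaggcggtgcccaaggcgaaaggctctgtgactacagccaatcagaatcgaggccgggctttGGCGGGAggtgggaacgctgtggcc
PCNA promoter, chr20:5126623-5126872, minus strand: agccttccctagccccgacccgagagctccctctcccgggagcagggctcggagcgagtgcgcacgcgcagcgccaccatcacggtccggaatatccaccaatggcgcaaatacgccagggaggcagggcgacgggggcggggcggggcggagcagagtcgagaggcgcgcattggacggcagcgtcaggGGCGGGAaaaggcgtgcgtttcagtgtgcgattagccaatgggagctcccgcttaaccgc
CCNB2 promoter, chr15:59104896-59105145, plus strand: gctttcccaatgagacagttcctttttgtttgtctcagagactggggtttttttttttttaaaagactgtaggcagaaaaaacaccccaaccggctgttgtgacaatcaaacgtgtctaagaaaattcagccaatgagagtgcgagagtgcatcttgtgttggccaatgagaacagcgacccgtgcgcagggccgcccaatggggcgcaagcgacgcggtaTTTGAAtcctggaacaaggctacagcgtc
PLK1 promoter, chr16:23678639-23678888, plus strand: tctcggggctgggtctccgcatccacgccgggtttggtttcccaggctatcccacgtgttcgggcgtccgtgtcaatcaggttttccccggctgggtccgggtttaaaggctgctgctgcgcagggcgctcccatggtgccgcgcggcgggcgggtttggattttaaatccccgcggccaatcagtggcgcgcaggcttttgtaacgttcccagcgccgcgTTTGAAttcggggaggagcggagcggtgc

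The 3 GGCGGGA matches ended close to the start, lying 32 (GINS2), 25 (CDC6) and 60 (PCNA) bases before it, and the TTTGAA matches of CCNB2 and PLK1 both lay 29 bases before it. PCNA, the sliding clamp of DNA polymerase, fell from 192, 170 and 164 CPM to 115, 107 and 113 CPM, a log2 fold change of -0.65 ± 0.06, with -0.45 ± 0.06 against TGFβ alone (adjusted p = 0.00142). CDC6, the helicase loader, fell from 124, 103 and 98.4 to 72.8, 65.2 and 66.1 CPM (-0.67 ± 0.08); against TGFβ alone its -0.28 ± 0.08 missed the test (adjusted p = 0.0861). CCNB2, cyclin B2, held 109, 94.0 and 89.3 CPM untreated, 65.6, 70.8 and 70.5 with TGFβ, 106, 104 and 110 with alisertib and 74.7, 74.6 and 70.8 with both. PLK1, the polo-like kinase of mitotic entry, held 73.6, 80.9 and 79.0 CPM untreated and 59.1, 68.6 and 64.6 with both (-0.28 ± 0.07, adjusted p = 0.00383). Neither CCNB2 nor PLK1 passed the test against TGFβ alone, at 0.09 and 0.12.

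Homologous recombination and Fanconi genes also fell. Of 24 tested, 21 fell in the combined cells and none rose (87.5%; 20.3% of all tested genes), with a median of -0.47 against -0.20 with TGFβ and -0.25 with alisertib. Each agent lowered 9 of the 24, against 370 of all 20571 tested genes. Against TGFβ alone 9 were lower and none higher (37.5% lower, against 0.89% of all tested genes). That count was 16 without libraries 1, 6, 9 and 10. With 1 library left out it was 2 to 14, the lowest without TGFβ library 4 and the highest without untreated library 1. EXO1, an exonuclease of repair and replication (53.8, 45.0 and 43.7 to 32.3, 28.8 and 28.6 CPM), and CLSPN, the CHK1 adaptor claspin (121, 97 and 98.4 to 70.7, 65.8 and 61.9 CPM), each fell by 0.67 on the log2 scale. GGCGGGA was in 15 of 26 promoters of the list (57.7%; 20 of 24 genes matched). TIPIN (-0.84), RMI2 (-0.66) and FANCD2 (-0.62) completed the largest falls. BRCA2, a mediator of homologous recombination, fell by 0.61 with a wide spread, from 16.3, 20.3 and 27.0 to 15.1, 14.4 and 12.2 CPM. Nucleotide synthesis genes fell in a smaller share: 10 of 22 fell and 1 rose (45.5% lower and 4.55% higher), with a median of -0.22. Without libraries 1, 6, 9 and 10, 13 fell and 3 rose, and with a GC and length offset 16 fell and 2 rose. TYMS, thymidylate synthase and the target of fluorouracil, led the falls of this list, from 290, 271 and 263 CPM to 154, 157 and 151 CPM (-0.83 ± 0.05), and was lower than with TGFβ alone by 0.43 ± 0.05 (adjusted p = 0.000547). TYMS overlaps ENOSF1, its antisense neighbour, so the reads of both can mix.

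Mitosis genes moved another way. In the combined cells 31 of 40 fell and 1 rose (77.5% lower; 20.3% of all tested genes), with a median of -0.36. TGFβ alone matched this in value at -0.35, with 33 lower (82.5%, against 20.1% of all tested genes). Alisertib alone gave a median of 0.05, with 2 higher and none lower (5% higher, against 3.55% of all tested genes). Against TGFβ alone 1 mitosis gene was higher and none lower (2.5% higher, against 1.19% of all tested genes), or 10 higher and 1 lower without libraries 1, 6, 9 and 10. CCNA2, cyclin A2, fell from 254, 217 and 217 to 147, 134 and 138 CPM, with 140, 138 and 152 under TGFβ alone. ANLN, SGOL1 and NUF2 (cytokinesis, cohesion protection and kinetochore) fell by 0.60, 0.60 and 0.57. CENPF, a kinetochore protein, fell by 0.57 with an SE of 0.18, a call lost in 5 settings. KIF20A, a cytokinesis kinesin, was pulled both ways: 278, 250 and 236 CPM untreated, 171, 175 and 173 with TGFβ, 307, 309 and 333 with alisertib and 221, 211 and 208 with both. MKI67, the proliferation antigen Ki-67, fell from 1345, 1205 and 1177 to 951, 937 and 906 CPM (-0.42 ± 0.06, adjusted p = 5.50e-05).

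The target kinase itself, AURKA (chr20:54944445-54967393), had 317, 277 and 266 CPM untreated, 174, 172 and 178 with TGFβ, 328, 324 and 357 with alisertib and 232, 219 and 214 with both. Combined cells were lower than untreated ones by 0.37 ± 0.06 on the log2 scale (adjusted p = 0.000270) and higher than TGFβ alone by 0.34 ± 0.06 (adjusted p = 0.0121). The second call was lost in 3 settings. Alisertib acts on the kinase's activity, which mRNA does not measure. Of 17 Aurora kinases and partners 11 fell (64.7%; 20.3% of all tested genes) and 1 rose, or 13 fell and 2 rose without libraries 1, 6, 9 and 10. AJUBA (-1.18), HMMR (-0.62), CKAP5 (-0.44) and TPX2 (-0.36), activators or spindle partners of Aurora A, were among those that fell, and NEDD9 (0.31) rose. BRCA1, a repair factor that Aurora A phosphorylates, fell by 0.46. AURKB, the Aurora kinase of the chromosomal passenger complex, was lower by 0.23 ± 0.07 (adjusted p = 0.0223), a call lost in 5 settings.

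The histone genes that passed the filter, 12 of the 20 listed, mostly rose. Of these 11 were higher (91.7%; 19.4% of all tested genes) and 1, the linker histone H1F0 at -0.14, was lower, with a median of 0.73 against 0.37 with TGFβ and 0.63 with alisertib. Each agent raised 5 of the 12, against 372 of all 20571 tested genes. The other 8 listed genes were not tested. HIST1H2AC, an H2A gene of the cluster on chromosome 6 (chr6:26124373-26139344), had 11.7, 11.2 and 11.0 CPM untreated, 15, 15.7 and 13.9 with TGFβ, 17.9, 18.6 and 18.3 with alisertib and 22.0, 23.5 and 23.7 with both. The 4 groups were again apart, and the combined libraries exceeded TGFβ alone by 0.63 ± 0.06 (adjusted p = 0.000419). HIST1H2BC (1.07), HIST1H2BN (1.12) and HIST2H2BE (1.02) rose as well. HIST2H2AA3, near 0 in every group, is counted among them, and its call was lost in 12 settings. Histone genes of a cluster are near-identical copies and can share reads, so the single genes are uncertain. How fully the library kit captured histone RNA was not tested, so these counts are not a measure of all histone RNA.

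**Figure D3:**
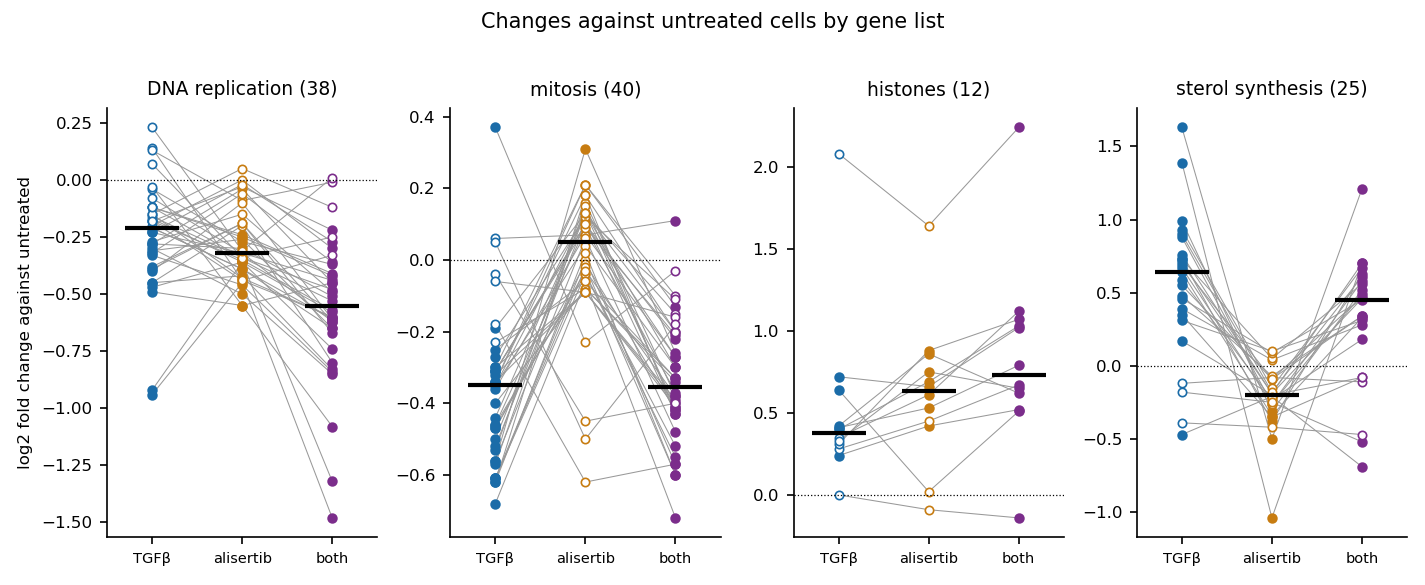
Log2 fold changes against untreated cells with TGFβ, with alisertib and with both, for the tested members of 4 lists (38 DNA replication, 40 mitosis, 12 histone and 25 sterol synthesis genes). Lines join a gene, filled points were called, open points were not, and the bar is the list's median; the replication medians step from -0.21 and -0.32 to -0.55, whereas the mitosis median is -0.35 with TGFβ, 0.05 with alisertib and -0.36 with both.

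Among CDK inhibitors, D cyclins and GADD45 genes 5 of 15 rose and 5 fell (33.3% each; 19.4% and 20.3% of all tested genes). CDKN1A, which encodes the CDK inhibitor p21, rose from 53.3, 65.5 and 65.3 CPM to 230, 269 and 274 CPM (2.07 ± 0.09, adjusted p = 2.23e-10), and TGFβ alone gave 260, 265 and 233 CPM. CDKN1B, the p27 gene, fell from 23.7, 23.8 and 24.8 to 15.3, 14.8 and 14.6 CPM. CCND1, cyclin D1, was raised by each agent and reached 374, 397 and 396 CPM with both, from 288, 285 and 282 untreated, above every single-agent library; its alisertib call was lost in 3 settings. CDK6 (1.04) and GADD45B (1.68) rose, and CDKN2D (-0.56) fell. GADD45A, a stress gene raised by alisertib and not called with TGFβ (-0.04), stood at 24.4, 23.5 and 24.1 CPM with both against 19.5, 18.1 and 16.6 untreated. MYC, a growth-promoting transcription factor, was not called (0.06 ± 0.05, adjusted p = 0.400).

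Genes known as SMAD targets were mostly higher in the combined cells. Their list, like the others, was made with earlier results of these data known. Of 22 SMAD target genes 20 rose and 1 fell (90.9% higher; 19.4% of all tested genes), with a median of 2.04 beside 2.13 with TGFβ alone and 0.18 with alisertib alone. Against TGFβ alone 1 was higher (LRRC15) and 2 lower (TGFBI and CTGF), with a median of -0.02; of all tested genes 1.19% were higher and 0.89% lower. These counts were 3 and 4 without libraries 1, 6, 9 and 10. With 1 library left out each was 0 to 2, and no SMAD target was called in either direction without TGFβ library 4 or 5 or combined library 11. SMAD7, the inhibitory SMAD (chr18:46446223-46477081), rose from 11.0, 10.7 and 10.8 to 46.8, 50.3 and 51.7 CPM, with 53, 51.4 and 49.7 under TGFβ. PMEPA1, a membrane protein that restrains SMAD signalling, rose from 80.4, 82.0 and 86.1 to 882, 981 and 1005 CPM; its 1096, 1113 and 1086 CPM under TGFβ were higher in every library, though the difference of -0.20 ± 0.06 missed the test (adjusted p = 0.165). SNAI1 (3.64), PTHLH (3.66) and JUNB (3.76) completed the top of the list, JUNB overlapping HOOK2.

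Of 23 pathway components 12 rose and 5 fell (52.2% and 21.7%; 19.4% and 20.3% of all tested genes). INHBA, the activin A subunit (1.31), SMURF2, a ubiquitin ligase of the receptors (1.22), and TGFB1 (1.06) rose, and TGFB2 fell by 1.28. On the BMP axis 6 of 14 members fell and 3 rose (42.9% and 21.4%). BMP4 fell from 208, 250 and 241 to 37.0, 35.1 and 33.4 CPM, and FST, the activin trap follistatin, from 29.3, 30.7 and 29.9 to 3.83, 2.39 and 2.62 CPM. The ID genes, direct BMP targets, were lowered by each agent: ID1 fell from 11.6, 14.8 and 14.9 to 2.91, 3.34 and 3.70 CPM (-2.05 ± 0.12), ID3 by 1.71 and ID2 by 1.46. The alisertib call of ID3 was lost in 7 settings and that of ID1 in 1. FST was higher with both agents than with TGFβ alone (0.60 ± 0.14, adjusted p = 0.0441).

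The mesenchymal list had 11 of 15 members higher and 3 lower (73.3% and 20%; 19.4% and 20.3% of all tested genes), with a median of 1.16. FN1, fibronectin (chr2:216225163-216300895), rose from 750, 841 and 896 to 4939, 4525 and 5043 CPM. COL1A1, the main chain of type I collagen, rose from 3.23, 4.81 and 4 to 58.9, 90.4 and 89.2 CPM, where library 10 was the lowest of the combined group. VIM, vimentin, went from 1234, 1233 and 1224 to 2063, 2034 and 2133 CPM (0.76 ± 0.04). CDH2, N-cadherin, rose under each agent: 1.89, 1.30 and 1.33 CPM untreated, 2.96, 2.76 and 2.24 with alisertib, 2.85, 3.45 and 3.33 with TGFβ and 4.40, 4.35 and 4.53 with both. The combined libraries lay above all others, but the difference from TGFβ alone missed the test (0.46 ± 0.14, adjusted p = 0.134). MMP2 (2.90) and COL5A1 (1.67) also rose, while S100A4, ACTA2 and AXL fell by 0.60, 0.55 and 0.48. Of 5 tested transcription factors of the transition, SNAI1, SNAI2 and ZEB1 rose (3.64, 1.17 and 0.49), FOXC1 fell by 0.45, and ZEB2 was not called. SNAI2, which each agent raised, went from 35.0, 27.5 and 25.8 to 68.0, 64.6 and 66.9 CPM.

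Epithelial genes split, with 8 of 21 higher and 9 lower (38.1% and 42.9%; 19.4% and 20.3% of all tested genes). CDH1, E-cadherin, fell from 5.14, 5.88 and 5.62 to 2.19, 2.28 and 2.04 CPM (-1.36 ± 0.11, adjusted p = 1.41e-07). TJP3 (-4.01, from under 1 CPM), LAMA3 (-2.16), CLDN1 (-2.03) and MUC1 (-1.38), parts of tight junctions, basement membrane and apical surface, fell. CDH3, P-cadherin (2.48), was the largest rise. CD44, a hyaluronan receptor and stem-like marker, rose by 0.62, from 1299, 1125 and 1120 to 1903, 1751 and 1811 CPM.

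Matrix genes were mostly up: 26 of 36 collagens and matrix genes rose and 4 fell (72.2% higher, against 19.4% of all tested genes), with a median of 1.05 beside 0.67 with TGFβ and -0.07 with alisertib. Set directly against TGFβ alone, 1 of the 36 was higher and 1 lower, with a median of -0.01. The larger combined median therefore does not show a matrix list raised beyond its TGFβ level. COL6A3, a collagen VI chain that each agent raised, went from 50.5, 55.0 and 57.9 to 522, 603 and 605 CPM. COL1A2 (2.45) and P4HA3, a prolyl hydroxylase of collagen (2.39), rose with COL1A1 and FN1. Of 22 laminins and integrins 11 rose and 5 fell (50% and 22.7%, against 19.4% and 20.3% of all tested genes). The share that fell was near that of all tested genes. ITGB6 (2.28), which activates latent TGFβ, LAMB3 (1.82) and ITGAV (1.67) rose, and LAMA3 fell by 2.16. The integrin ITGA6, raised by each agent, reached 851, 803 and 830 CPM with both from 608, 533 and 551, and exceeded TGFβ alone by 0.24 ± 0.05 (adjusted p = 0.0274).

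Proteases and their inhibitors held 8 genes raised by each agent among 27 tested, against 372 of all 20571 tested genes. In combined cells 19 of 27 rose and 7 fell (70.4% and 25.9%, against 19.4% and 20.3% of all tested genes), with a median of 1.63 beside 1.29 with TGFβ and 0.25 with alisertib, which alone raised 11 and lowered none. Set directly against TGFβ alone, 3 of the 27 were higher and none lower (11.1% higher, against 1.19% of all tested genes), with a median of 0.08. MMP1, the interstitial collagenase (chr11:102660651-102668891), had 2.13, 1.72 and 1.78 CPM untreated, 2.81, 2.31 and 2.32 with TGFβ, 5.67, 4.48 and 7.08 with alisertib and 6.23, 6.69 and 6.03 with both. Its TGFβ change missed the test (0.40 ± 0.16, adjusted p = 0.0598), and the combined level exceeded TGFβ alone by 1.35 ± 0.15 (adjusted p = 0.000606). ADAMTS6, a matrix protease, went from 25.0, 21.9 and 19.9 to 96.7, 94.7 and 95.5 CPM, and TGFβ alone gave 98.9, 99.7 and 107. Of 20 actin and contractility genes 14 rose and 3 fell (70% and 15%), with TAGLN (1.85) and TPM1 (1.98) higher and the kinase MYLK lower by 1.73. Of 23 YAP and TAZ targets 13 fell and 5 rose (56.5% and 21.7%), among them ANKRD1 (-1.68), CRIM1 (-1.08) and NT5E (1.18).

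In the sterol pathway the 2 agents opposed each other. Of 25 genes 19 were higher and 2 lower in combined cells (76% higher; 19.4% of all tested genes), with a median of 0.45. TGFβ alone raised 21 (84%, against 18.5% of all tested genes, median 0.64). Alisertib alone lowered 9 (36%, against 3.19% of all tested genes, median -0.20). The agents moved 9 genes of the list in opposite directions, against 231 of all 20571 tested genes. Against TGFβ alone 9 were lower and none higher (36%; 0.89% of all tested genes), 16 without libraries 1, 6, 9 and 10, and 4 to 12 with 1 library left out, 4 without TGFβ library 5 or combined library 11, 5 without TGFβ library 4. INSIG1, the sterol sensor that retains SCAP in the endoplasmic reticulum (chr7:155089486-155101945), had 26.0, 28.2 and 28.5 CPM untreated, 82.1, 85.4 and 89.0 with TGFβ, 19.6, 19.8 and 18.9 with alisertib and 61.6, 63.7 and 66.1 with both. Combined libraries lay above untreated and below TGFβ ones, at 1.21 ± 0.05 and -0.42 ± 0.05 (adjusted p = 2.74e-10 and 0.00105). HMGCS1, the HMG-CoA synthase of the mevalonate pathway, gave 49.0, 43.2 and 45.7 CPM untreated, 88.1, 90.0 and 95.4 with TGFβ, 35.9, 37.5 and 37.8 with alisertib and 67.8, 63.6 and 66.1 with both. MSMO1, a sterol methyl oxidase, went from 48.7, 44.7 and 48.9 to 72.6, 66.8 and 72.6 CPM, with 84.8, 85.8 and 91.3 under TGFβ and 39.0, 39.6 and 40.6 under alisertib. MVD rose by 0.70, a call lost in 10 settings.

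Of 16 fatty acid synthesis genes 6 rose and 5 fell (37.5% and 31.2%; 19.4% and 20.3% of all tested genes). SCD, the stearoyl-CoA desaturase (chr10:102106881-102124591), had 140, 155 and 155 CPM untreated, 227, 250 and 260 with TGFβ, 80.3, 86.1 and 82.0 with alisertib and 172, 172 and 176 with both. SCD was lower with both than with TGFβ alone by 0.51 ± 0.06 (adjusted p = 0.000625). It was higher than untreated by 0.21 ± 0.06 (adjusted p = 0.00938), a call lost without combined library 12 (adjusted p = 0.0536). SREBF1, the lipogenic transcription factor, fell from 16.7, 27.7 and 29.7 to 11.9, 16.3 and 14.2 CPM, and untreated library 1 lay far below its partners; the gene overlaps RAI1. GPAM (1.68) and ACLY (0.94) rose, and ELOVL6 and ACACA fell by 0.92 and 0.49.

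Among 29 interleukins and secreted NF-kB genes 15 rose and 9 fell (51.7% and 31%; 19.4% and 20.3% of all tested genes). Each agent raised 6 of the 29, against 372 of all 20571 tested genes. Alisertib alone raised 10 and lowered 1 (34.5% and 3.45%, against 3.55% and 3.19% of all tested genes). Against TGFβ alone combined cells had 6 higher and none lower (20.7%; 1.19% of all tested genes). That count was 9, with 2 lower, without libraries 1, 6, 9 and 10, and 2 to 8 with 1 library left out: 2 without TGFβ library 4 or 5 or combined library 10, and 3 without combined library 12. CSF2, the growth factor GM-CSF, rose from 10.4, 12.9 and 12.3 to 37.2, 45.7 and 46.9 CPM. IL11, a cytokine of the IL-6 family and known TGFβ target, rose from 38.9, 39.0 and 36.7 to 116, 124 and 129 CPM. CCL2, a monocyte chemokine, fell under each agent, to 1.30, 0.710 and 1.06 CPM with both from 3.9, 3.91 and 4.32, with its alisertib call lost in 7 settings.

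EGFR ligands and ERK feedback genes were mostly lower: 13 of 21 fell and 3 rose (61.9% and 14.3%; 20.3% and 19.4% of all tested genes), with a median of -0.27 where TGFβ alone had -0.57. Against TGFβ alone 8 were higher and none lower (38.1%; 1.19% of all tested genes), or 4 to 8 with 1 library left out, with 4 or 5 without any 1 of TGFβ libraries 4, 5 and 6, alisertib library 8 and combined libraries 10 and 11. EREG, the EGFR ligand epiregulin (chr4:75230860-75254468), had 21, 18.8 and 18.7 CPM untreated, 20.9, 23.5 and 22.3 with alisertib, 1.94, 1.5 and 1.57 with TGFβ and 5.45, 3.97 and 3.79 with both. It thus lay low, but above TGFβ alone by 1.40 ± 0.14 (adjusted p = 0.000359). AREG (-2.78), SPRY1 (-2.54) and BTC (-1.84) also fell. DUSP1, a MAP kinase phosphatase raised by each agent, rose from 8.38, 9.58 and 9.66 to 27.7, 27.4 and 30.1 CPM. Of 22 AP-1 and immediate early genes 11 rose (50%) and 5 fell (22.7%). Each agent raised 5 of the 22 (372 of all 20571 tested genes), among them KLF4 (from 11.7, 11.7 and 11.2 to 36.0, 38.0 and 39.5 CPM) and FOSB (3.25, under 2 CPM throughout). FOSL2 fell by 1.06.

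Transcripts of MHC class II genes were down as a whole: all 12 tested genes fell (100%, against 20.3% of all tested genes). Their median was -2.65 beside -2.70 with TGFβ alone and -0.29 with alisertib alone. HLA-DRA, the alpha chain of HLA-DR, fell from 222, 221 and 218 to 24.3, 15.8 and 16.2 CPM, with 163, 172 and 171 under alisertib. HLA-DOA (-4.23), HLA-DMA (-2.91) and HLA-DMB fell alongside CIITA, and none of the 12 passed the test against TGFβ alone. HLA genes are polymorphic and similar to each other, so counts of single genes are uncertain. In MHC class I and peptide loading 4 of 18 fell and 2 rose (22.2% and 11.1%). The share that fell was near the 20.3% of all tested genes, and the count was 7 without libraries 1, 6, 9 and 10. Of 34 interferon-stimulated genes 16 fell and 9 rose (47.1% and 26.5%, against 20.3% and 19.4% of all tested genes). GBP2, a guanylate-binding protein, was lowered by each agent, from 78.7, 82.0 and 78.1 CPM to 55.6, 62.9 and 60.2 with alisertib, 32.5, 32.7 and 35.2 with TGFβ and 28.4, 24.2 and 23.9 with both. The combined libraries were the lowest (-0.39 ± 0.07 against TGFβ alone, adjusted p = 0.00972), though this call was lost in 1 setting; the locus overlaps GBP7. ISG20 (1.36) and IRF7 (1.33) rose.

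The remaining lists are given by their counts, to be read against the 19.4% of all tested genes that were higher and the 20.3% that were lower. Of 21 apoptosis regulators 7 rose and 7 fell (33.3% each), with TNFSF10, the death ligand TRAIL, lower by 1.29 and BIRC3 by 1.22. Of 30 hypoxia and glycolysis genes 8 rose and 6 fell (26.7% and 20%), shares near those of all tested genes, and VEGFA rose from 360, 465 and 467 to 1234, 1344 and 1369 CPM. Of 26 ATF4 and unfolded protein genes 12 rose and 8 fell (46.2% and 30.8%): PSAT1 of serine synthesis fell by 0.70 and the sensor SESN2 rose by 0.77. Lysosome and autophagy genes rose in 14 and fell in 3 of 23 (60.9% and 13%), with TFEB, their main transcription factor, higher by 1.02. Ribosome biogenesis genes fell in 6 and rose in 1 of 20 (30% and 5%), and respiratory chain genes fell in 9 and rose in 1 of 27 (33.3% and 3.7%). Without libraries 1, 6, 9 and 10 the numbers that fell were 9 and 11, and 4 rose in each list. Mitochondrial transcripts fell in 2 of 13 and rose in none (15.4% lower, near the share of all tested genes). That count was 0 without untreated library 1 or combined library 11 or 12, 1 without TGFβ library 5, 6 without untreated library 3, and 7 with a covariate for the 4 libraries. In the stem-like list 5 of 13 rose and 4 fell (38.5% and 30.8%): JAG1, a NOTCH ligand raised by each agent (2.58), KLF4 and SOX4 (1.97) rose, and LGR5 (-2.03, under 1 CPM) and SOX9 (-0.92) fell.

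**Figure D4:**
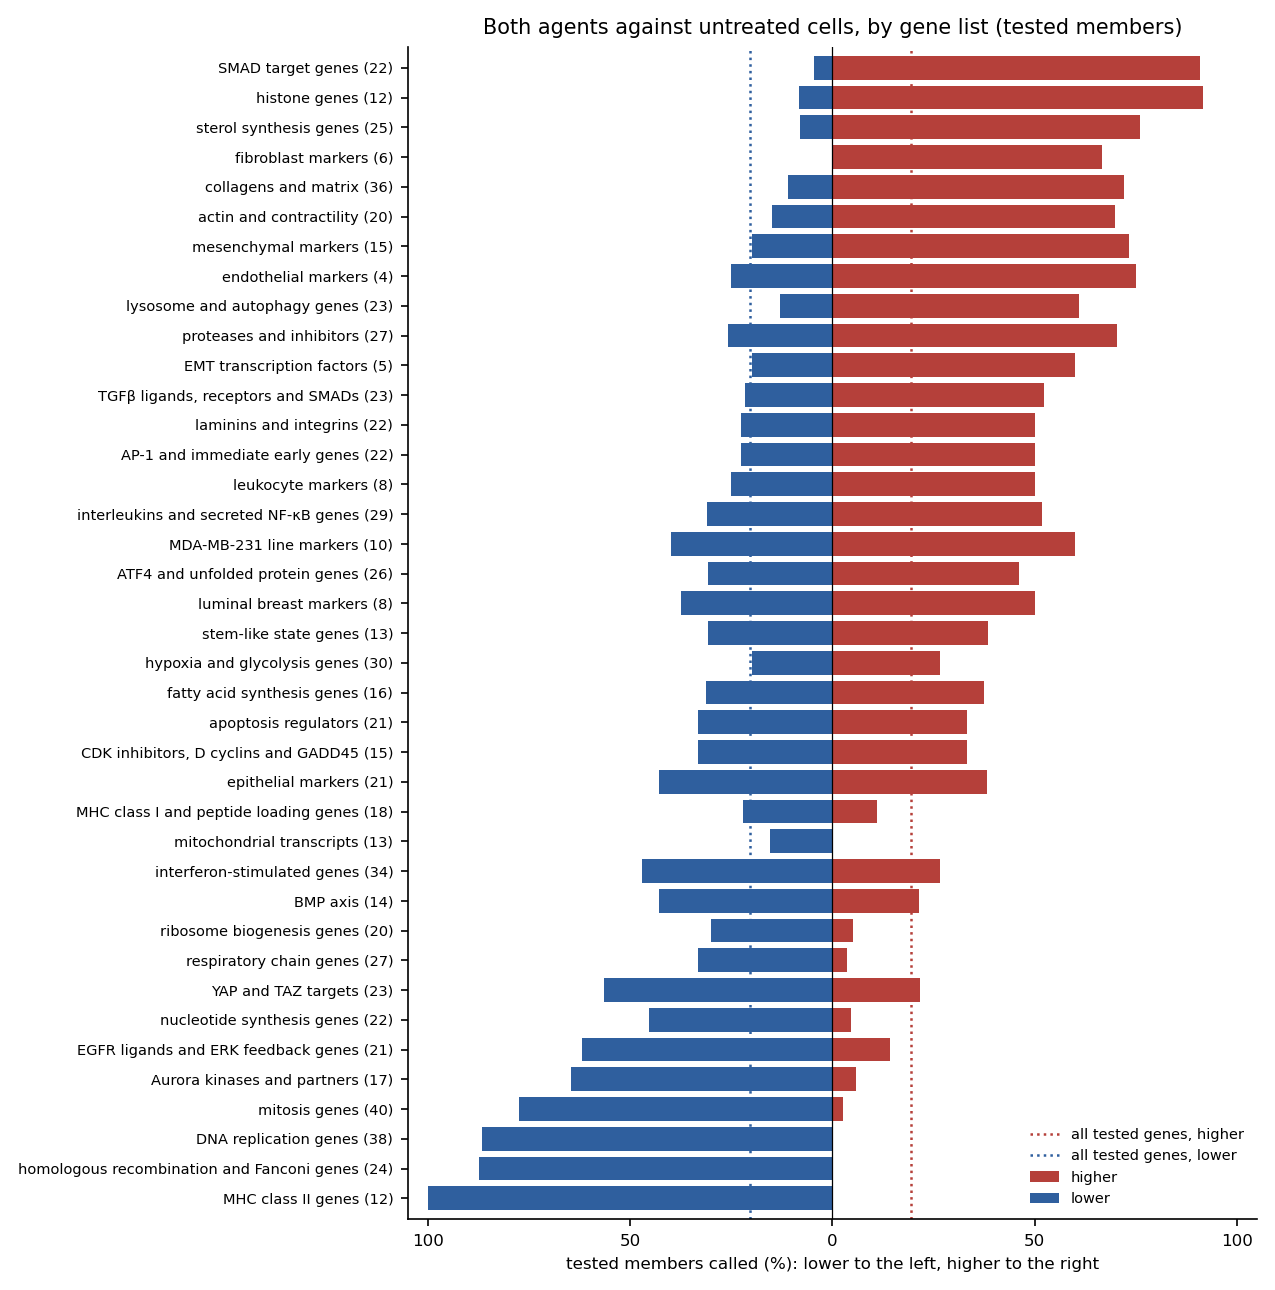
Percent of the tested members of each gene list called higher (to the right) and lower (to the left) in combined against untreated cells; dotted lines mark the shares over all tested genes, 19.4% and 20.3%. SMAD targets (90.9% higher) and histone genes reach far to the right, and MHC class II (100% lower), recombination (87.5%) and replication genes (86.8%) far to the left.

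Markers of other cell types moved as well, and are given beside the matrix, cytokine and MHC results. Fibroblast markers summed to 2.91 to 3.65 RPKM in untreated and 13.6 to 18.1 RPKM in combined libraries. Of 6 tested, 4 were higher and none lower (66.7% higher, against 19.4% of all tested genes). COL1A1 (0.301 to 0.455 RPKM untreated and 5.32 to 8.12 RPKM combined), COL1A2 and PDGFRB (1.6 to 2.02 and 4.07 to 5.04 RPKM) carried that rise, while DPT and TCF21 were at 0 in both groups and DCN reached at most 0.00746 RPKM. Leukocyte markers summed to 31.5 to 40 and 63.7 to 71.9 RPKM, carried by CD68, LAPTM5 and CSF1R (18.4 to 24.8, 10.7 to 11.7 and 1.37 to 2.15 RPKM untreated, and 32.6 to 37, 23.0 to 24.9 and 7.47 to 9.37 RPKM combined). Of 8 tested, 4 were higher and 2 lower (50% and 25%, against 19.4% and 20.3% of all tested genes). PTPRC was at 0 to 0.00382 RPKM in combined libraries, CD3D, CD3E and SPI1 were at 0 there, and MS4A1, TYROBP and NKG7 were at 0 in both groups. LAPTM5, a lysosomal protein known from blood cells, is also 1 of the genes raised by each agent, at 85.0, 92.6 and 92.1 CPM against 38.2, 40.7 and 40.8 untreated. Endothelial markers summed to 3.13 to 3.82 and 6.93 to 8.21 RPKM, mainly through ESAM (2.69 to 3.35 and 6.53 to 7.84 RPKM), and CLDN5 was at 0. Of 4 tested, 3 were higher and 1 lower (75% and 25%, against 19.4% and 20.3% of all tested genes). Besides ESAM the higher ones lay near the floor. TIE1 was at 0 untreated and 0.0243 to 0.0383 RPKM combined, and TEK at 0.085 to 0.116 and 0.131 to 0.187 RPKM. Luminal breast markers summed to 186 to 235 and 205 to 239 RPKM, with 4 of 8 tested higher and 3 lower (50% and 37.5%, against 19.4% and 20.3% of all tested genes). The part of these markers in the results was not tested.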

How the data were processed

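The 12 libraries were made from total RNA (miRNeasy Mini Kit) with a TruSeq v2 kit, which does not mark strand, per the labels' protocols. The submitters' processing notes name bcl2fastq, TopHat, Subread and featureCounts and build hg19, with no versions. The authors deposited, for 57773 genes, whole-number counts per library and RPKM values; the counts were tested and RPKM was used only for marker sums. No 2 libraries of a group had the near-identical counts of a repeated deposit. Coordinates are hg19, as deposited.

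Counts were fitted with edgeR 4.0.16 (R 4.3.3) over all 12 libraries in 4 groups, with TMM scaling, its default expression filter (20571 genes kept) and the robust quasi-likelihood test on 8 residual degrees of freedom. P-values were Benjamini-Hochberg adjusted over all tested genes and called under 0.05. Fold changes are log2 with standard errors, and CPM values are TMM-scaled. The interaction is combined minus TGFβ minus alisertib plus untreated. The procedure was tested on simulated counts for combined against untreated cells, without the GC-linked library deviations seen here. It recovered 15.2% of set log2 changes of 0.25, 47.7% of 0.5, 72% of 1 and 95.9% of 2, with 4 false calls. Small differences that missed the test are therefore not shown to be absent. Alternatives were DESeq2 1.42.0, other scaling, no filter, an additive model, a GC and length offset, a covariate, and leaving out libraries.

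The comparison and the 40 gene lists were chosen with earlier results of these data known. Some named genes and a list are not reported here. Of 818 distinct list members 748 were tested and 70 did not pass the filter. Named genes were the 12 highest and 12 lowest called genes of at least 5 CPM with no overlap between groups, up to 5 called members of each list with the largest change, the 10 strongest genes raised and the 10 lowered by both agents, 6 of each opposite kind, the 4 highest and 4 lowest protein-coding interactions, and 20 set genes. Outside this rule, POLA1, MCM5, CDT1, PRIM2, GINS3, POLD1, CDC6, PCNA, CCNB2, BRCA2, KIF20A, NEDD9, H1F0, GADD45A, LRRC15, TGFBI, CTGF, S100A4, ACTA2, AXL, ZEB2, ITGA6, MMP1, CRIM1, HMGCS1, MSMO1, FOSL2 and CD68 were named after their values were seen, as were the 6 genes next to the threshold.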

Additional observations from a re-analysis of the deposited data

Results flagged for a closer look

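In 58 genes the effect of alisertib differed with and without TGFβ by the interaction test (quasi-likelihood test of edgeR, Benjamini-Hochberg adjusted). The 8 given here are the 4 with the highest and the 4 with the lowest values among those with a mean of at least 5 CPM in 1 group, leaving out clone-based and non-coding symbols. Of the symbols left out at that level, LINC00880 (-1.17), RP11-54A9.1 (-1.15) and CTD-2066L21.2 (-0.94) lay below ADAMTS6, CTD-2066L21.3 gave -0.86 and MYH16, which is not protein-coding in the annotation, -0.82. Among these EREG had the highest value, 1.21 ± 0.18 on the log2 scale (adjusted p = 0.0125), its alisertib change being 0.19 without TGFβ and 1.40 with it. PDE4B, a cyclic AMP phosphodiesterase, had 17.3, 15.5 and 15.7 CPM untreated, 11.2, 12.3 and 11.5 with alisertib, 1.24, 1.42 and 1.38 with TGFβ and 1.91, 1.99 and 1.77 with both. Alisertib went with less PDE4B in the absence of TGFβ and more in its presence, an interaction of 0.96 ± 0.12 (adjusted p = 0.00674). SLC1A3, a glutamate transporter, gave 0.86 ± 0.14 (adjusted p = 0.0250) and CNKSR3, a scaffold of sodium channel regulation, 0.81 ± 0.14 (adjusted p = 0.0297). On the other side the combined change fell short of the sum. ADAMTS6 gave -0.86 ± 0.10 (adjusted p = 0.00294), with mean levels of 22.2 CPM untreated, 37.9 with alisertib, 102 with TGFβ and 95.6 with both. FAP gave -1.17 ± 0.20 (adjusted p = 0.0281), PTPRR -0.79 (adjusted p = 0.0214) and DCLK1 -0.77 (adjusted p = 0.0297). PDE4B and ADAMTS6 kept their call in every setting tried; EREG lost it in 4, SLC1A3 and PTPRR in 8 each, CNKSR3 and FAP in 9 each and DCLK1 in 10.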

How the results depend on the processing

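The numbers of genes higher and lower in combined than in untreated cells stayed within 1.5 times of the main counts in every setting (3104 to 5425 and 3468 to 5177), and no named gene changed direction. Of 233 named genes, 215 kept their side of the threshold in every setting. The smaller comparisons moved more, and the cause was not tested. Higher and lower counts are given in that order. With DESeq2, combined against TGFβ gave 399 and 306 and the interaction 70 and 111; without the expression filter the interaction gave 50 and 55. Without libraries 1, 6, 9 and 10 alisertib against untreated gave 2272 and 2801, combined against TGFβ 683 and 751, the interaction 479 and 265, the same-way sets 917 and 910 and the opposite sets 973 and 571. With a covariate for those 4 libraries alisertib gave 1820 and 2237, combined against TGFβ 918 and 902, the interaction 184 and 198, the same-way sets 855 and 972, and the opposite sets 596 and 462. With a GC and length offset alisertib gave 2076 and 1569, combined against TGFβ 1007 and 706, the interaction 134 and 196, the same-way sets 1054 and 825, and the opposite sets 275 and 480. The additive model gave opposite sets of 255 and 445. Leaving out 1 library at a time gave 416 to 1377 and 294 to 1221 for alisertib, 83 to 413 and 70 to 341 for combined against TGFβ, 4 to 80 and 12 to 86 for the interaction, 232 to 574 and 184 to 515 for the same-way sets, and 33 to 152 and 93 to 279 for the opposite sets. The same-way sets were smallest without alisertib library 7 (raised) and 8 (lowered) and largest without untreated library 1. No paired analysis was possible because the libraries are numbered 1 to 12 and no 2 groups share a number.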
